A study of Mus musculus with 10 samples.

Results

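The genes described here are 10 markers of enteroendocrine cells, the hormone-secreting cells of the gut epithelium: the transcription factors *Neurog3*, *Neurod1*, *Pax4* and *Insm1*, the secretory granule proteins *Chga*, *Chgb* and *Scg3*, the neurofilament subunit *Nefm*, and the peptide genes *Pyy* and *Tac1*. They were taken by name, as markers of this cell type, from 21911 protein-coding genes of the GENCODE M21 annotation of GRCm38. A locus comprised the gene and 5 kb of flanking sequence on either side. Of the 10 loci, 9 held a peak of accessible chromatin in at least 1 library and 1, that of *Neurog3*, held none in any. Over all protein-coding genes, 21.2% had no peak in any library.

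Enteroendocrine cells arise from crypt progenitors that pass through a brief NEUROG3-positive stage. NEUROG3 switches on NEUROD1, INSM1 and PAX4, which carry the endocrine programme, and the maturing cells fill dense-core granules with granins and with peptide or amine hormones. In the colon these include L cells, which make peptide YY, and serotonin-producing enterochromaffin cells, many of which also make the tachykinin precursor *Tac1*.

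Chromatin was profiled by Omni-ATAC-seq, in which a transposase places sequencing adaptors into accessible DNA, in 10 libraries of 50000 sorted live cells from mouse colon organoids. The WT groups had 2 libraries in WENR and 3 in d4 ENR, and the AHR KO groups had 3 in WENR and 2 in d4 ENR. WENR is the regenerative medium with Wnt3a, a p38 inhibitor, an ALK5 inhibitor and nicotinamide added to EGF, Noggin and R-spondin, and d4 ENR is the differentiating medium without these additions, sampled 4 days after the switch. AHR KO organoids came from Vil-Cre *Ahr* fl/fl mice, in which Cre under the Villin promoter deletes the aryl hydrocarbon receptor, a ligand-dependent transcription factor, in intestinal epithelium. WT organoids came from wild-type littermates, and both genotypes were on a C57BL/6 background with organoids grown from crypts of the whole colon. The age of the mice was not given in the sources used here. Live cells were not sorted by type, so a peak cannot be assigned to enteroendocrine cells, and fewer cells of a type cannot be told apart from less accessible chromatin in each of them.

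The lists held 33433 to 65308 peaks per library, called from 30354729 to 49126792 fragments. The share of all fragment coverage that lay within peaks was 63.0 to 66.5% in WT WENR, 67.2 to 68.6% in AHR KO WENR, 14.1 to 30.9% in WT d4 ENR and 33.8 to 44.2% in AHR KO d4 ENR. Both the media and, within each medium, the genotypes thus differed without overlap in a measure that covers the whole genome, and its part in the results given here was not tested. The start of each of 6 epithelial marker genes was covered by a peak in every library.

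The *Neurog3* locus (chr10:62128090-62139763 with its flanks) had 0 covered bases in each of the 10 libraries. *Neurog3*, the master regulator of endocrine fate, is a short gene of 1674 bp that lies within *Fam241b*, which is transcribed from the opposite strand. An absent peak means that the region did not pass the peak caller's threshold in bulk organoid cells. The RefSeq promoter, the 250 bases before the start on the plus strand at chr10:62132840-62133089 of GRCm38.p6, is shown because its locus held no peak. The capitals mark the 4 matches on either strand to GCGTG, the core of the site bound by AHR with its partner ARNT.
Neurog3 promoter: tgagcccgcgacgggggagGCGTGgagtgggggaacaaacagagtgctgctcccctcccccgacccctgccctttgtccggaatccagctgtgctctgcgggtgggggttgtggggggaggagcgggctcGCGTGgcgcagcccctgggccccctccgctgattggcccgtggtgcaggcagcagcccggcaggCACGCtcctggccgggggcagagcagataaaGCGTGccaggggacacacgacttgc
GCGTG was found in 32.4% of 32841 RefSeq promoters of 300 bases. The *Neurog3* promoter had a CpG content of 0.547 of that expected from its base composition, against a median of 0.384 over all promoters. A match to these letters is a description of the sequence and does not show binding.

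*Neurod1*, a basic helix-loop-helix factor that follows *Neurog3*, was covered over 339 and 568 bp in WT WENR and over 632, 674 and 685 bp in AHR KO WENR. All 5 d4 ENR libraries had 0 covered bases at *Neurod1*. The media did not overlap, and the mean within genotypes was 559 bp lower in d4 ENR (difference -559 bp, exact permutation test with libraries exchanged between media within genotypes, 2-sided p = 0.02, adjusted p = 0.0387 by Benjamini-Hochberg over 17265 genes with a peak). The 100 arrangements of this test allow no p below 0.02. Of these genes, 51.3% had fewer covered bases in d4 ENR without overlap within either genotype.

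The peaks of *Neurod1* did not lie at its start. In every WENR library a single peak lay within 2149 to 2837 bp past the start, in coding and untranslated sequence of an exon, and no library had a peak over the annotated start. The same stretch holds the start of *Gm26755*, a lincRNA on the opposite strand, which was covered in 3 libraries, all of them AHR KO WENR, so the signal of the *Neurod1* exon cannot be told apart from that of the antisense gene. *Cerkl*, on the same strand as *Neurod1*, also spans the locus, and its start was not covered in any library. Fold enrichment over the local background was 3.92 and 3.68 in WT WENR and 4.93, 4.33 and 3.80 in AHR KO WENR. The part of the region shared by all 5 libraries is shown as 300 bases of coding sequence on the minus strand at chr2:79454084-79454383 (GRCm38.p6), which are also exonic in *Gm26755*.
Neurod1 coding region: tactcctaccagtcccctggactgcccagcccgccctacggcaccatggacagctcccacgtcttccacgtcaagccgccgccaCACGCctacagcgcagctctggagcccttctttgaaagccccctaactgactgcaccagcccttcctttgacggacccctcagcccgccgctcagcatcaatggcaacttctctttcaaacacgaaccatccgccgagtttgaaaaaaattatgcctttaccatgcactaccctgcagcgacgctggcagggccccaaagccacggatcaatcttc
The capitals mark 1 match to GCGTG, read here on the other strand, which was present in 21.9% of 85677 windows of 300 bases at the centre of all regions. The RefSeq promoter of *Neurod1*, not printed, had a CpG content of 0.837 of that expected and held no peak in any library.

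*Pax4*, a paired-box factor of endocrine progenitors, showed the same pattern at a site outside the gene. Covered bases were 674 and 496 bp in WT WENR, 513, 484 and 644 bp in AHR KO WENR and 0 in every d4 ENR library. The media did not overlap (-566 bp, exact permutation p = 0.02, adjusted p = 0.0387). The region lay 4327 to 5315 bp past the end of *Pax4*, in non-exonic sequence of *Fscn3*, and reached beyond the window, so its peaks of 617 to 959 bp were counted in part. With the gene body alone *Pax4* had no covered base in any library and hence no difference. Fold enrichment at this region was 4.26 and 4.74 in WT WENR and 6.21, 5.44 and 5.94 in AHR KO WENR. The AHR KO libraries were the higher ones, but the share of all regions for which this held was not computed. The *Neurod1* and *Pax4* regions were 2 of the 16 consensus regions of the loci, formed by merging overlapping peaks of all libraries, and the only ones called in all 5 WENR and no d4 ENR libraries. Over the genome 5.46% of 85680 regions had this pattern.

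*Insm1*, a zinc finger factor required for endocrine differentiation, kept a peak in all 10 libraries. Covered bases were 3018 and 2697 bp in WT WENR and 3291, 2474 and 3139 bp in AHR KO WENR. In d4 ENR the WT libraries had 1196, 1401 and 1343 bp and those of AHR KO 2557 and 3010 bp. The WT d4 ENR libraries were the lowest of all, whereas both AHR KO d4 ENR libraries lay within the range of WENR. The difference between media was -864 bp (exact permutation p = 0.06, adjusted p = 0.0904). The exact permutation p was 0.0333 without AHR KO WENR replicate 2 and 0.1 to 0.15 without any other single library. Within d4 ENR, AHR KO libraries had 1470.2 bp more than WT without overlap (exact permutation p = 0.2, the smallest that 3 against 2 libraries allow). Such an excess without overlap was found in 54.4% of all genes with a peak. The genotype difference at *Insm1* was -399 bp with lists of equal length. Divided by the covered length of the library, the difference between media was 2.98 bp per Mb.

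The bases that WT d4 ENR lacked were at the start of *Insm1*. In WENR and in AHR KO d4 ENR a single peak spanned the start, from between -872 and -515 bp to between 1640 and 1941 bp. WT d4 ENR replicate 2 had separate peaks at -588 to -101 bp and at 730 to 1642 bp. WT d4 ENR replicate 3 likewise had peaks at -689 to -89 bp and at 761 to 1502 bp, and WT d4 ENR replicate 1 had only a peak at 652 to 1847 bp. The annotated start of *Insm1* was thus covered in 7 of 10 libraries, all but those of WT d4 ENR. Of all protein-coding genes, 53.2 to 57.3% had a covered start in WT d4 ENR libraries and 57.8 and 59.0% in those of AHR KO. A further region upstream, at -3664 to -2920 bp, was called in 5 libraries, among them both AHR KO d4 ENR libraries and none of WT d4 ENR. The shares of all genes and regions with these patterns were not computed.

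**Figure D1:**
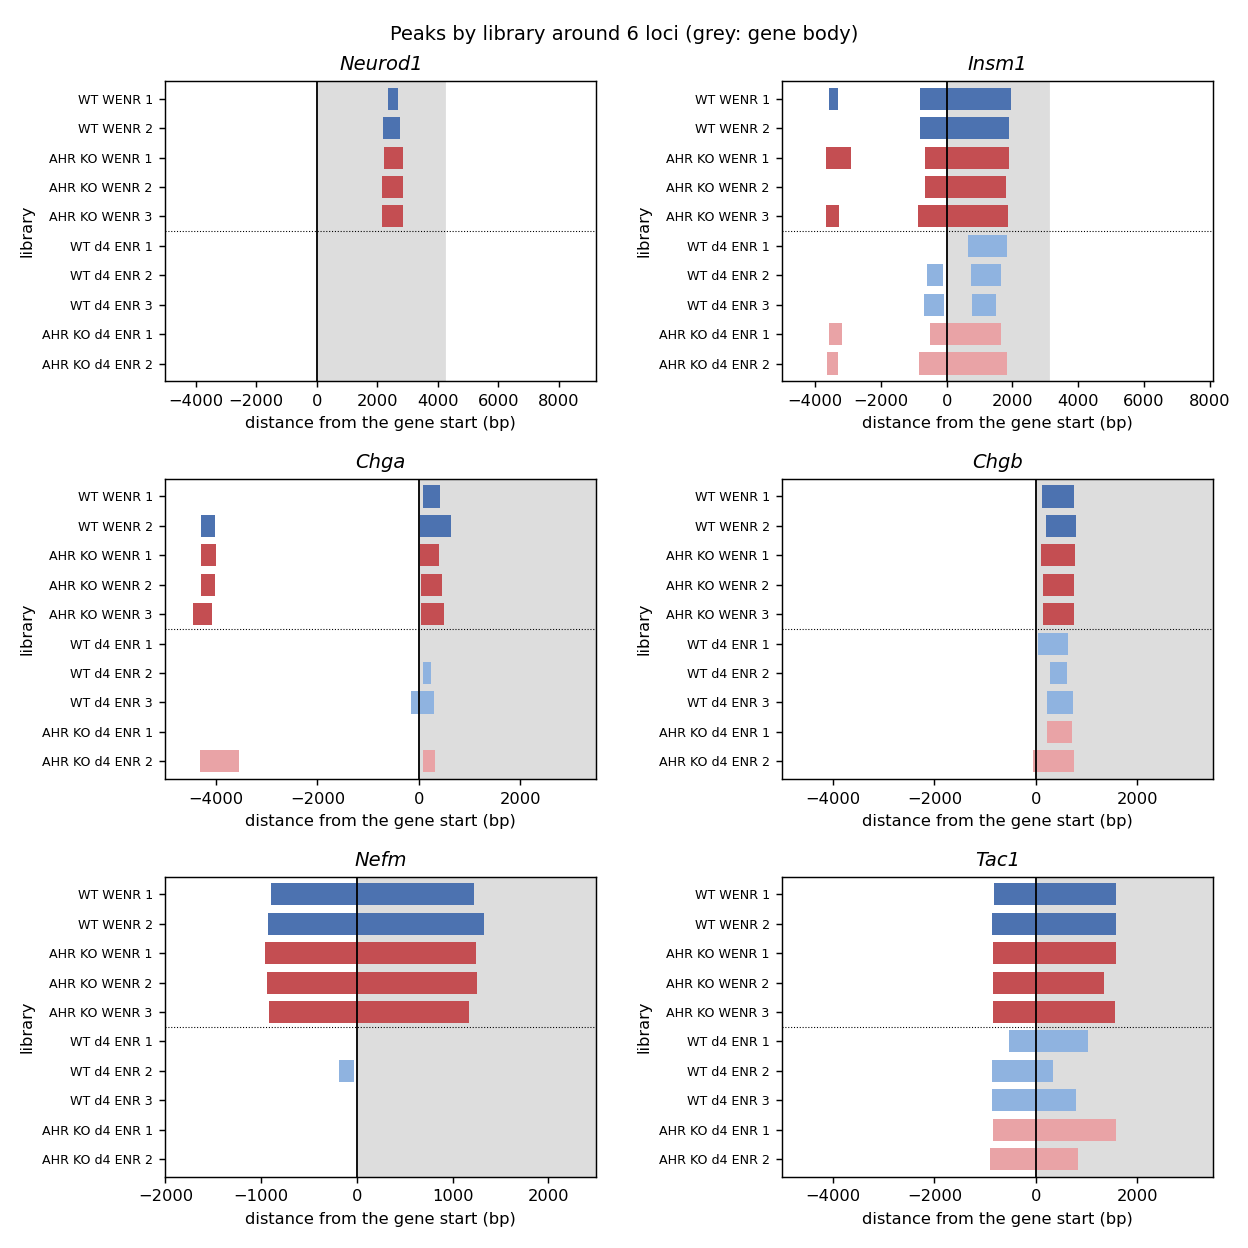
Peaks of each library (rows, dark for WENR and light for d4 ENR, blue for WT and red for AHR KO) by distance from the gene start in bp at *Neurod1*, *Insm1*, *Chga*, *Chgb*, *Nefm* and *Tac1*, with the gene body in grey. Bars are single peaks as called; those of *Neurod1* were absent in all d4 ENR libraries, those over the *Insm1* start were broken or missing in WT d4 ENR only, and *Nefm* had a broad peak over its start in WENR only.

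The granins are acidic proteins of dense-core granules. *Chga*, the chromogranin used most often to stain enteroendocrine cells, was covered over 328 and 885 bp in WT WENR and 929, 705 and 804 bp in AHR KO WENR. In d4 ENR the WT libraries had 0, 177 and 448 bp and those of AHR KO 0 and 998 bp. The media overlapped, since AHR KO d4 ENR replicate 2 was the highest of all libraries while 2 other d4 ENR libraries had no peak (-356 bp, exact permutation p = 0.2, adjusted p = 0.245). The gene body alone separated the media (-342 bp, exact permutation p = 0.02), as for 45% of the genes with a peak so counted. Counted that way, AHR KO d4 ENR replicate 2 lost the 755 bp peak of an upstream region, and WT d4 ENR replicate 3 lost the part of its peak before the start. WENR libraries lost their peaks of that region too, of 289 bp in WT replicate 2 and 297, 273 and 360 bp in AHR KO.

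The main *Chga* region, called in 8 libraries, began just downstream of the start. In the 5 WENR libraries its peaks began 19 to 88 bp past the start, and the annotated start itself was covered in WT d4 ENR replicate 3 alone. Fold enrichment ranged from 2.77 to 4.00 over the 8 libraries, and these peaks ranked between the percentiles 5.13 and 33.2 of their own lists by significance. The stretch before the start is printed from the RefSeq promoter (plus strand, chr12:102554691-102554968, GRCm38.p6), up to the GENCODE start. The capitals mark TGACG, part of the cAMP response element and found in 20.8% of promoters on either strand, and the TATA box letters TATAAA, found in 13.6%.
Chga promoter: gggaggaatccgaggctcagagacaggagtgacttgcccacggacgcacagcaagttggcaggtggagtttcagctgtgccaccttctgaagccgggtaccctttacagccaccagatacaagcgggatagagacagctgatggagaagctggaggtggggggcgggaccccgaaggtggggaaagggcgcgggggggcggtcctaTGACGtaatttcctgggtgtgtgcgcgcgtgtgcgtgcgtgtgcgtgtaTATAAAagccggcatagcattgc
TATAAA began at -23 bp from the GENCODE start, which is 5 bp past the RefSeq start, and TGACG at -72 bp from the GENCODE start. The run of 4 matches to GCGTG just before the TATA letters was left in lower case. An upstream region of *Chga* was called in 4 of 5 WENR libraries and in AHR KO d4 ENR replicate 2, with 1 WT library among the 5. Its shared part of 204 intergenic bases, upstream of the gene at chr12:102550674-102550877 (plus strand, GRCm38.p6), held 1 match to GCGTG, in capitals.
Chga upstream region: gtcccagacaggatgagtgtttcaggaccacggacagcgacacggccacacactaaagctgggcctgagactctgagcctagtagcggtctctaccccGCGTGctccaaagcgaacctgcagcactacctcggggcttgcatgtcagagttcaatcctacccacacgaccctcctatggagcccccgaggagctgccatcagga

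*Chgb*, the second chromogranin, had the most even coverage among the granins. It was covered over 645 and 599 bp in WT WENR, 665, 614 and 621 bp in AHR KO WENR, 604, 329 and 516 bp in WT d4 ENR and 497 and 803 bp in AHR KO d4 ENR. The ranges of the media overlapped (-61.2 bp, exact permutation p = 0.54, adjusted p = 0.592), and the sign turned without AHR KO d4 ENR replicate 1 (15.3 bp). The height of the peak separated the media where its width did not. Fold enrichment was 6.91 ± 0.53 (SD, n = 2) in WT WENR and 7.38 ± 0.34 (n = 3) in AHR KO WENR, against 3.95 ± 1.05 (n = 3) in WT d4 ENR and 4.14 ± 0.38 (n = 2) in AHR KO d4 ENR.

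Every d4 ENR library was below every WENR library in fold enrichment at *Chgb*, with 5.01 as the highest of d4 ENR and 6.53 as the lowest of WENR. Of the 3 regions of the loci called in all 10 libraries, at *Chgb*, *Insm1* and *Tac1*, this was the only one so separated. Over the genome 32.9% of regions were called in all 10 libraries, and of those 15.3% had lower fold enrichment in d4 ENR without overlap in either genotype. The peak lay over the RefSeq start of *Chgb* in all 10 libraries and over the GENCODE start, which lies further upstream, in AHR KO d4 ENR replicate 2 alone. The 30 bases around the full cAMP response element TGACGTCA, in capitals and at -72 bp from the RefSeq start, are at chr2:132781559-132781588 (plus strand, GRCm38.p6).
Chgb element: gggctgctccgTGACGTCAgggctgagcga
TGACGTCA, which reads the same on both strands and contains TGACG, was found in 1.79% of promoters, and among the 7 members with a RefSeq promoter it was found in that of *Chgb*.

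*Scg3*, secretogranin III, which anchors chromogranin A to the granule membrane, was the member whose mean was not lower in d4 ENR. It was covered over 747 and 496 bp in WT WENR and 867, 1083 and 875 bp in AHR KO WENR. In d4 ENR the WT libraries had 0, 0 and 987 bp and those of AHR KO 1017 and 1524 bp. The AHR KO libraries were above the WT libraries in both media, on average by 941.5 bp in d4 ENR and by 320.2 bp in WENR (exact permutation p = 0.2 each). Of all genes with a peak, 54.4% and 11.8% were so separated. In d4 ENR the nearest values were 987 bp in WT replicate 3 and 1017 bp in AHR KO replicate 1, while the other WT libraries had 0 bp. The difference in WENR was 195 bp without WT WENR replicate 2 and 0 bp with lists of equal length. Between media the difference was 18.2 bp (exact permutation p = 0.96, adjusted p = 0.979), and it took the opposite sign without any of 4 libraries, falling to -146 bp without WT d4 ENR replicate 3.

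The coverage of *Scg3* came from 4 regions that were called in different libraries. The start region was called in 4 WENR libraries and in WT d4 ENR replicate 3, and in neither AHR KO d4 ENR library. An intronic region about 20 kb into the gene was called in 8 libraries, all but WT d4 ENR replicates 1 and 2. Another intronic region was found in each of the 2 AHR KO d4 ENR lists and in no other, as were 0.524% of all regions. The last intronic region was found in AHR KO d4 ENR replicate 2 alone. At the region shared by the AHR KO d4 ENR libraries fold enrichment was 3.79 and 4.17, at the percentiles 37.0 and 38.6 of the respective lists. Of the bases of the region called in 8 libraries 53.8% were soft-masked as repeats in the reference, against a median of 12.3% over all regions. For the region shared by the AHR KO d4 ENR libraries this was 37.0%.

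*Nefm*, the medium neurofilament chain, which is made by neurons and by neuron-like endocrine cells, lost more covered bases than any other member. It was covered over 2566 and 2838 bp in WT WENR and 2858, 2828 and 2618 bp in AHR KO WENR. In d4 ENR the WT libraries had 0, 585 and 514 bp and those of AHR KO 511 and 514 bp. The media were far apart and did not overlap (-2296 bp, exact permutation p = 0.02, adjusted p = 0.0387), and the genotypes overlapped in both media.

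The loss at *Nefm* was that of a broad, low peak over the start. In WENR this peak was 2093 to 2258 bp wide and its fold enrichment was 2.48 to 2.81, at the percentiles 5.28 to 11.3 of the lists. In d4 ENR only WT replicate 2 had a remnant, of 160 bp. A narrower intronic peak about 22 kb into the gene was kept in 9 libraries, all but WT d4 ENR replicate 1, with a fold enrichment of 4.76 ± 0.33 (SD, n = 2) in WT WENR and 4.19 ± 1.53 (n = 2) in AHR KO d4 ENR. The start of the neurofilament gene *Nefl*, which lies within the annotated span of *Nefm* on the opposite strand and is named for that reason, was covered in 0 libraries. When every list was shortened to the 33433 most significant peaks, the length of the shortest, the differences between media were -54.3 bp at *Nefm* (exact permutation p = 0.72), 0 bp at *Neurod1* and -273.5 bp at *Pax4* (p = 0.2), so that none of the 3 calls was kept. With only peaks of a −log10 q of at least 5 that of *Nefm* was lost (-274 bp, exact permutation p = 0.06).

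*Pyy*, which encodes the satiety hormone of L cells, had no peak in its body or at its start in any library. A single region 3752 to 4239 bp past its end, in intergenic sequence, was called in 6 libraries. Covered bases were 422 and 313 bp in WT WENR, 264, 0 and 311 bp in AHR KO WENR, 0, 0 and 268 bp in WT d4 ENR and 408 and 0 bp in AHR KO d4 ENR. The media overlapped (-133 bp, exact permutation p = 0.3, adjusted p = 0.351). In WENR the AHR KO libraries were lower without overlap (-176 bp, exact permutation p = 0.2), as at 11.1% of all genes with a peak. However, the nearest values of the genotypes, 311 and 313 bp, were only 2 bp apart, and the difference was -80.0 bp without AHR KO WENR replicate 2. The promoters of *Pyy* had the lowest CpG content of the 7 members with a RefSeq entry, 0.290 and 0.287 of that expected.

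*Tac1*, the precursor of substance P and neurokinin A, had a GENCODE start covered in all 10 libraries and was the only member of which this held. Over all protein-coding genes 52.1% had such a start covered in all 10 libraries. Covered bases were 2420 and 2440 bp in WT WENR, 2429, 2185 and 2410 bp in AHR KO WENR, 1574, 1217 and 1658 bp in WT d4 ENR and 2413 and 1739 bp in AHR KO d4 ENR. As at *Insm1*, the 3 WT d4 ENR libraries were the lowest and AHR KO d4 ENR replicate 1 lay within the WENR range. The difference between media was -606 bp (exact permutation p = 0.06, adjusted p = 0.0904). The exact permutation p was 0.05 without AHR KO d4 ENR replicate 1 and 0.0667 to 0.15 without any other single library. Within d4 ENR the AHR KO libraries had 593 bp more without overlap (exact permutation p = 0.2), and in WENR the difference was -88.7 bp. More bases in AHR KO d4 ENR without overlap were found in 54.4% of all genes with a peak. The d4 ENR difference was 256 bp without AHR KO replicate 1 and 930.0 bp without AHR KO replicate 2. Divided by the covered length of the library it was -2.88 bp per Mb, and the difference between media 6.92 bp per Mb.

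The *Tac1* peak spanned the start, and its upstream edge lay between -894 and -829 bp in all libraries but WT d4 ENR replicate 1, where it lay at -536 bp. The downstream edge varied more. That edge lay 1351 to 1590 bp past the start in WENR and at 1575 bp in AHR KO d4 ENR replicate 1, but at 844 bp in AHR KO d4 ENR replicate 2 and at 344 to 1037 bp in WT d4 ENR. The pileup, the mean fragment coverage of the peak, was 12.3 and 17.0 per 10000000 fragments in WT WENR and 18.8, 23.7 and 29.7 in AHR KO WENR. It was 3.71, 4.88 and 6.19 in WT d4 ENR and 5.30 and 10.8 in AHR KO d4 ENR. Pileup was lower in every d4 ENR than in every WENR library at all 3 regions called throughout, those of *Tac1*, *Insm1* and *Chgb*. Over the genome it was lower without overlap within either genotype at 83.6% of such regions. Within WENR the AHR KO libraries had the higher pileup without overlap at 1 of the 3, that of *Tac1*, against 23.2% of such regions. Fold enrichment at *Tac1*, which sets the pileup against its surroundings in the same library, did overlap, from 4.11 to 4.64 in WENR and from 2.95 to 5.16 in d4 ENR. The 30 bases around the E-box CAGATG, in capitals, lie at chr6:7554876-7554905 (plus strand, GRCm38.p6). The letters begin at -173 bp from the RefSeq start and 9 bp past the GENCODE start, and CAGATG occurred in 17.2% of promoters on either strand.
Tac1 E-box: cacaatttggtcCAGATGttatggactccg
The *Tac1* promoter had the highest CpG content of the members with a RefSeq entry, 1.01 of that expected.

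**Figure D2:**
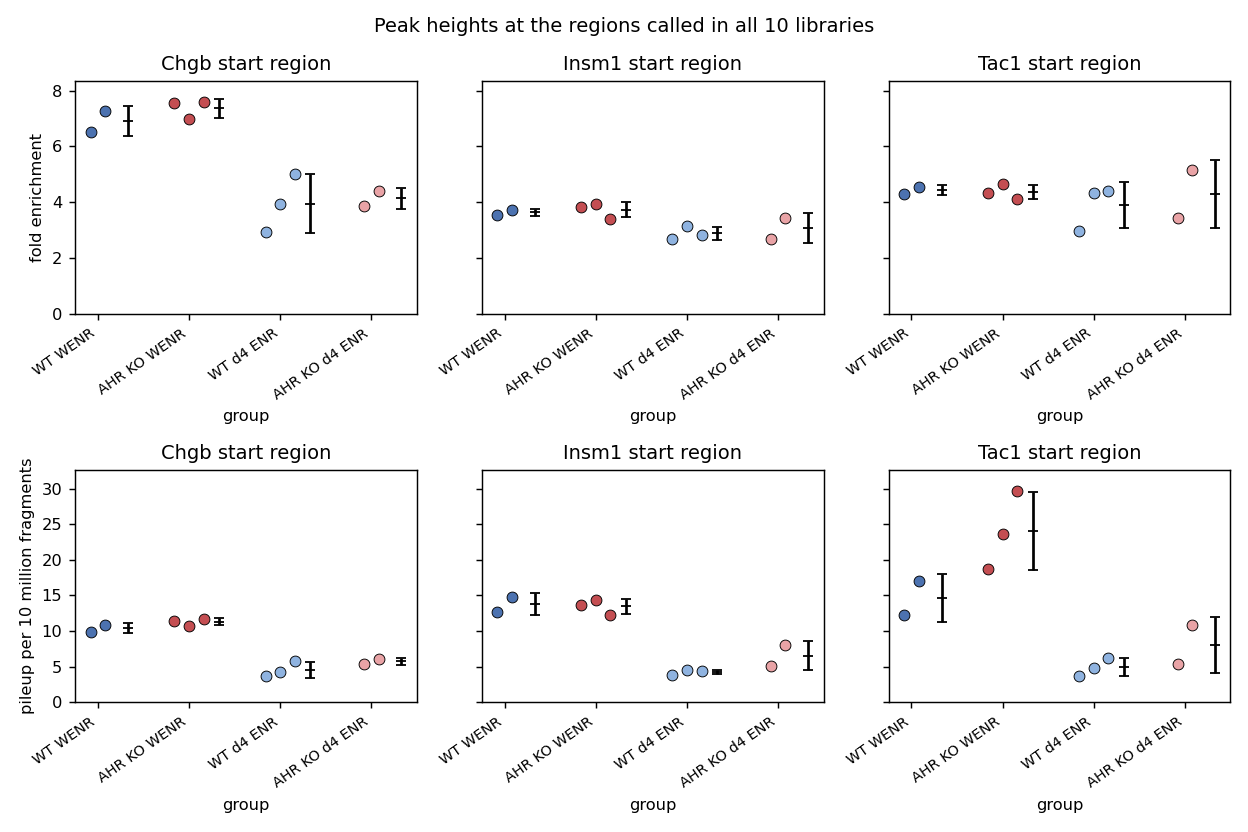
Fold enrichment over local background (upper row) and pileup per 10000000 fragments (lower row) of each library at the regions over the starts of *Chgb*, *Insm1* and *Tac1*, by group, with the mean and SD of each group beside the points (n = 2 or 3). Pileup was lower in every d4 ENR library at all 3 regions, while fold enrichment separated the media only at *Chgb*, where it was 6.53 or more in WENR and 5.01 or less in d4 ENR.

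Together, 3 of the 9 members with a peak, *Nefm*, *Neurod1* and *Pax4*, had fewer covered bases in d4 ENR in both genotypes. Every d4 ENR library was below every WENR library of its genotype, and 0 members were covered over more bases in that way. Over all 17265 protein-coding genes with a peak these shares were 51.3% and 0.301%, and the share of 33.3% among the members was below that of all genes. These are the same 8863 genes with fewer and 52 genes with more covered bases that reached an adjusted p of 0.05 or below. In the exact permutation test only full separation within both genotypes gives the smallest p of 0.02. With covered bases divided by the covered length of the library the same 3 members were separated, while the shares of all genes were 11.5% with less and 29.6% with more coverage in d4 ENR. The mean was lower in d4 ENR in 8 of 9 members and in 16046 of 17265 genes. The median difference was -559 bp for the members and -575 bp for all genes with a peak. The summed covered bases of the 10 loci were 11159 and 11332 bp in WT WENR, 11047 to 12448 bp in AHR KO WENR, 3374 to 5734 bp in WT d4 ENR and 7403 and 8588 bp in AHR KO d4 ENR.

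**Figure D3:**
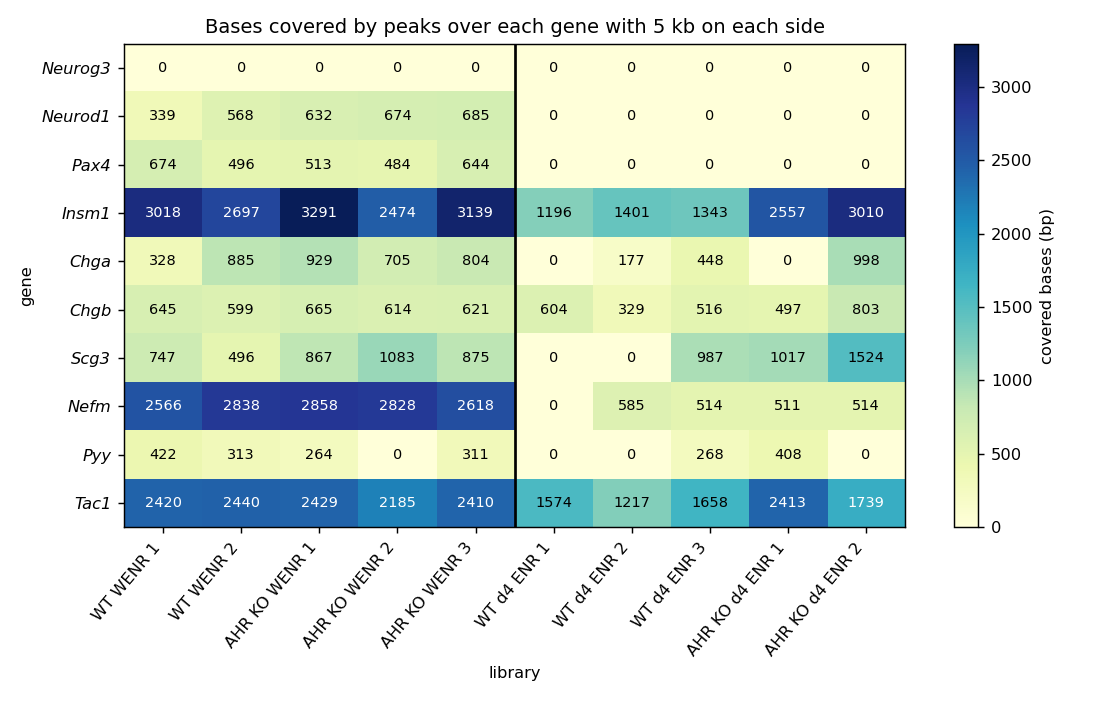
Heat map of covered bases in bp, with the value of each of the 10 genes (rows) in each of the 10 libraries (columns, WENR left and d4 ENR right of the line). *Neurog3* was at 0 throughout, *Neurod1* and *Pax4* were at 0 in all d4 ENR libraries, and *Insm1* and *Tac1* were lowest in the 3 WT d4 ENR libraries.

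**Figure D4:**
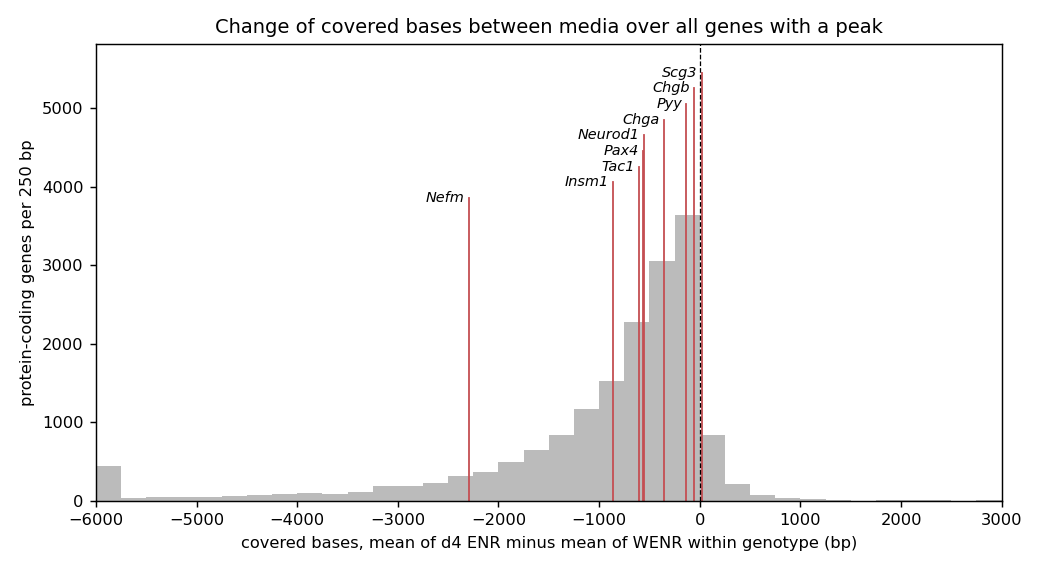
Histogram of the difference in covered bases between d4 ENR and WENR (bp, mean within genotypes) over 17265 protein-coding genes with a peak, in bins of 250 bp, with the 9 members as red lines. The outermost bins also hold the 404 genes below and the 3 genes above the axis; *Nefm* (-2296 bp) lies far to the left and the other members lie between -864 and 18.2 bp, around the median of all genes (-575 bp).

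Between the genotypes in d4 ENR, 3 of 9 members, *Scg3*, *Insm1* and *Tac1*, were covered over more bases in AHR KO without overlap and 0 over fewer, against 54.4% and 0.237% of all genes with a peak. The median difference between AHR KO and WT in d4 ENR was 167 bp for the members and 411.5 bp for all genes. The count was 5 without AHR KO d4 ENR replicate 1, where the share of all genes was 71.6%, and 1 (*Tac1*) with lists of equal length, where it was 52.2%. When covered bases were divided by the covered length of the library the count was 1 (*Insm1*), with 9.75% of all genes more and 24.1% less covered in AHR KO. In WENR, *Scg3* and *Neurod1*, 2 of 9 members, had more covered bases in AHR KO and *Pyy*, 1 of 9, had fewer, against 11.8% and 11.1% of all genes. Without WT WENR replicate 2 these counts were 4 and 2, and the shares of all genes 26.9% and 22.1%. The count with fewer bases was also 2 without WT WENR replicate 1 (24.2% of all genes) and without AHR KO WENR replicate 1 (16.1%). No member among the 3 with a region called in all 10 libraries had higher fold enrichment in AHR KO d4 ENR without overlap (0 of 3, against 12.7% of such regions).

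At the starts, 4 of 10 members, *Neurog3*, *Neurod1*, *Pax4* and *Pyy*, were covered in no library, against 35.6% of all protein-coding genes. Between 1 and 4 member starts were covered per library, with 3 or 4 in WENR and 1 to 3 in d4 ENR. This is 10 to 40% of the members, where 53.2 to 62.3% of all genes had a covered start in the same libraries. The count depends on the start used, since the RefSeq start of *Chgb* was covered in all 10 libraries. With any peak within 1 kb of a start it was 3 to 6, for which the share of all genes was not computed. The peaks of the members were mostly weak ones. Of 96 values, 1 for each region and library with a peak, 76 were below the percentile 50 of their list by significance, and the median percentile was 33.2 with a range from 0.432 to 78.0. The highest belonged to *Tac1* in AHR KO WENR replicate 3 and the lowest to the upstream *Insm1* region of the same library.

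Further genes of enteroendocrine cells were taken from 5 lists with 76 annotated genes, of which 66 had a peak. Of these 38 (57.6%) were covered over fewer bases in d4 ENR without overlap within either genotype, and 0 over more. Across genotypes a d4 ENR library could still exceed a WENR library. Over all genes with a peak the shares were 51.3% and 0.301%. The median difference was -813 bp for the list genes and -575 bp for all genes with a peak. Among the hormones and peptides 8 of 14 had a peak and 5 of these lost covered bases. They were led by the granule peptide *Vgf* (-1940.3 bp) and by *Adcyap1* (-1643 bp), which encodes PACAP, with *Ghrl*, the ghrelin gene, at -1171 bp. No peak was found in any library at *Gcg*, *Sst*, *Nts*, *Ucn3*, *Gast* or *Iapp*, which are named here after their values had been seen. Of 6 genes of amine synthesis and transport all had a peak and 4 lost bases. Among them were the vesicular transporter *Slc18a1* (-1966.5 bp), the histidine decarboxylase *Hdc* (-893 bp) and *Tph1* (-237 bp), which acts on tryptophan in serotonin synthesis.

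Of 20 further transcription factors 19 had a peak and 13 lost bases in d4 ENR, led by *Nkx2-2* (-2705 bp), a regulator of endocrine subtypes, with *Lmx1a* (-1576 bp) and *Fev* (-1563 bp), factors of serotonin cells, among them. Of 20 genes of granules and release all had a peak and 12 lost bases, led by the amidating enzyme *Pam* (-11545 bp) and the granule protein *Ptprn2* (-4252 bp). Of 16 sensory receptors and channels 13 had a peak and 4 lost bases, led by the mechanosensitive channel *Piezo2* (-1915 bp) and *Cacna1a* (-1439 bp), a calcium channel subunit. The adjusted p of the exact permutation test was 0.0387 for each list gene named with a loss. The medians of the 5 lists were -431, -646, -869, -787 and -907 bp in the order given.

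In d4 ENR, 37 of the 66 list genes with a peak (56.1%) were covered over more bases in AHR KO without overlap and 1 over fewer, which is near the share of 54.4% among all genes. The differences were led by *Pam* (5098 bp), *Ptprn2* (3370 bp) and *Slc18a1* (3190.3 bp). *Ffar2*, a receptor of short-chain fatty acids, had 677.5 ± 9.19 bp (SD, n = 2) in AHR KO d4 ENR and 0 in every other library. The neighbouring genes *Ffar1* and *Ffar3* share the same peaks, and both were counted. The gene with fewer bases was *Cpe*, a carboxypeptidase that trims prohormones (-391 bp). By list, 4 hormone genes, 2 amine genes, 14 transcription factors, 8 granule genes and 9 receptors or channels had more bases in AHR KO d4 ENR.

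Markers of other cells were counted in the same way, and their part in the results was not tested. Of 8 goblet cell markers 2 lost bases in d4 ENR without overlap within either genotype. Among markers with a peak, the same held for 2 of 6 colonocyte, 4 of 6 epithelial and 5 of 6 neuron and glia markers. It also held for 1 of 3 immune and 2 of 3 mesenchyme and endothelium markers. The share of all genes was 51.3%. The shares of the goblet, colonocyte and immune lists were below it. The summed covered bases of the neuron and glia markers were 12106 to 14535 bp in WT WENR, 13331 to 15960 bp in AHR KO WENR, 959 to 4920 bp in WT d4 ENR and 6597 to 8610 bp in AHR KO d4 ENR. Those of the immune markers were 3766 to 4079, 3159 to 3762, 2369 to 3226 and 3535 to 3904 bp in the same order of groups, and those of the mesenchyme and endothelium markers were 4707 to 5262, 3706 to 5173, 1408 to 3375 and 2962 to 4631 bp. A peak in at least 1 library was found at 6 of 8 neuron and glia, 3 of 5 immune and 3 of 4 mesenchyme and endothelium markers. *Cd68*, *Col1a1* and *Pdgfra* had a peak in all 10 libraries. The glial gene *Sox10*, the lymphocyte gene *Cd3e* and the collagen gene *Col1a2* were among the markers with no peak in any library. For the goblet cell markers the sums were 18283 to 18462, 14154 to 16591, 8867 to 12996 and 15069 to 15094 bp in that order. For the colonocyte markers they were 16755 to 17818, 17752 to 20530, 9836 to 18027 and 17604 to 18186 bp, and for the epithelial markers 49999 to 53434, 50425 to 57897, 25057 to 35718 and 41490 to 42840 bp. The lowest single value of each of these 6 lists was that of a WT d4 ENR library.

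The 5 protein-coding genes whose covered bases per Mb of covered length were most like the sum over the members were *Bbx*, *Fcmr*, *Cdhr2*, *Adam33* and *Rflna*, with Pearson's r from 0.958 to 0.969 over the 10 libraries, which share the groups and the depth.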

How the data were processed

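Reads were trimmed, aligned with BWA to GRCm38 in nf-core/atacseq and used by the authors to call broad peaks separately for every library with MACS 2.2.7.1 (broad q 0.1, narrow q 0.05). Per the file headers the deposited pileup is a coverage signal in fragments, not scaled for depth. The authors' fold enrichment is a ratio of pileup to local background (10000 bp window), and the deposited −log10 p and q are the caller's significance. Replicates were not pooled. The files hold no counts per peak, so DESeq2 was not run.

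Bases covered by peaks were counted per locus (GENCODE M21), and peaks sharing at least 1 bp were merged into consensus regions (Python 3.11.15, numpy 2.4.6, pandas 2.3.3, scipy 1.17.1, matplotlib 3.10.9). Exact 2-sided permutation tests (2 times the smaller tail) exchanged libraries between media within genotypes (100 arrangements, smallest p 0.02) or between genotypes within a medium (10 arrangements, smallest p 0.2), with Benjamini-Hochberg adjustment over 17265 genes with a peak. The procedure was tested on simulated data with independent noise. These held neither loci without covered bases nor the difference in coverage between the real libraries. Groups that did not overlap were called, with the media compared only within each genotype and required to separate in both. Sources do not tie libraries to separate mice, so p-values measure the spread between libraries. Depth was 30354729 to 49126792 fragments per library, and an absent peak depends on it.

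The 10 genes and all lists were chosen with earlier results of these data known. List genes (hormones, amines, transcription factors, granule and release, sensory receptors, epithelium, goblet, colonocyte, neuron and glia, immune, mesenchyme and endothelium) are named where media or genotypes did not overlap, by size of the difference, and overlapping genes for their position. Promoters of 300 bases and their sequences are from RefSeq (GRCm38.p6), where 7 of 10 members had an entry. *Nefm*, *Insm1* and *Pax4* had none. CpG content is observed over expected CpG. The alternatives were the gene body alone or with 20 kb, lists of equal length, a −log10 q of at least 5, scaling to the covered length, a start within 1 kb, 50% of a region covered, each library left out and a replicate block. Some genes of these lists and the sequence of an intronic region are not reported here.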

Additional observations from a re-analysis of the deposited data

Results flagged for a closer look

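At *Tac1* the difference between genotypes in covered bases differed between the media. AHR KO minus WT was 593 bp in d4 ENR and -88.7 bp in WENR, which makes the difference between them 682 bp (exact permutation test with genotypes exchanged within media, 2-sided p = 0.04, adjusted p = 0.358 over 17265 genes). It was noted because the unadjusted p was below 0.05, as for 1928 genes in all, and 0 genes passed after adjustment. In d4 ENR both AHR KO libraries were above the 3 WT libraries, and in WENR the genotypes overlapped. When covered bases were divided by the covered length of the library, AHR KO minus WT in d4 ENR at *Tac1* was -2.88 bp per Mb.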

How the results depend on the processing

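Whether a peak is called depends on the depth of a library and on how much of its coverage lies in peaks. The latter differed between the groups, its part was not tested, and neither was the cause of the changes given here. Lists of equal length (33433 peaks) gave 0 of 9 members separated by medium (35% of all genes), 1 member with more bases in AHR KO in d4 ENR (52.2%), 1 in WENR (*Pax4*, which was not among the members reported, 8.57%), and *Insm1* at -399 bp in AHR KO minus WT in d4 ENR. Division by covered length left 1 member with more bases in AHR KO d4 ENR, turned *Tac1* in that comparison (-2.88 bp per Mb) and turned the medium difference to 4.38 at *Chgb*, 2.98 at *Insm1* and 6.92 bp per Mb at *Tac1*. With 20 kb on each side 5 members had more bases in AHR KO in d4 ENR and 1 in WENR (59.5% and 12.5% of all genes), and the medium difference was 96.6 bp at *Chgb* and -249 bp at *Scg3*. A −log10 q of at least 5 left 1 member with more and 0 with fewer bases in AHR KO in WENR, and -426 bp at *Scg3* between media (exact permutation p = 0.04). With each library left out in turn, the members separated by medium numbered 3 to 4, those with more bases in AHR KO 3 to 5 in d4 ENR and 2 to 4 in WENR, those with fewer 0 in d4 ENR and 1 to 2 in WENR. The medium difference then ranged from -138 to 15.3 bp at *Chgb* and from -146 to 145 bp at *Scg3*. In the replicate block, with same-numbered libraries of a genotype paired (4 pairs, smallest exact p 0.125), the medium difference was -2370.0 bp at *Nefm*, -553 bp at *Neurod1*, -542 bp at *Pax4* (p = 0.125 each) and -163 bp at *Scg3* (p = 0.625). The deviations of same-numbered libraries had correlations of -0.146 to 0.106. With only 2 libraries in 1 medium of each genotype, these cannot decide whether the numbers pair libraries. The sources do not say what a number shares, so the numbers were not taken to pair them. Of 90 recomputed member counts 77 stayed within 1.5 times the reported ones, of 144 medium differences of single members 127 kept their sign, 12 took the opposite one and 5 were 0, and of 270 genotype differences 204 kept their sign, 25 took the opposite one, 11 became 0 and 30 had been 0. Between 0 and 6 member starts were covered per library over the alternatives, against 1 to 4.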
